A study of Mus musculus with 2 samples.

Results

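The genes described here encode the proteins of the cytosolic ribosome. They were taken by symbol from the GENCODE vM21 annotation, as every protein-coding gene named Rpl or Rps with a number, plus Rplp0, Rplp1, Rplp2 and Rpsa, without the S6 kinases and the pseudogenes. This gave 86 of 21805 protein-coding genes. Of these, 77 are the canonical subunit genes, 46 of the large and 31 of the small subunit, 8 are paralogs of them (Rpl22l1, Rpl36al, Rps27l, Rpl7l1, Rpl10l, Rpl39l, Rpl3l and Rps27rt), and Rps19bp1 carries the prefix but encodes a protein that binds a ribosomal protein. Fau also encodes a ribosomal protein but has another symbol and is not among the 86.

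The ribosome is built from ribosomal RNA and a set of small, mostly basic proteins that are needed in nearly equal amounts, so that almost every cell transcribes all of these genes at a high rate. Their promoters are compact and often lack a TATA box, and transcription usually starts at a C within a stretch of pyrimidines. That stretch becomes the start of the messenger RNA (the terminal oligopyrimidine or TOP motif) and couples its translation to growth signals. In mouse and human the genes are scattered over the chromosomes as single functional copies, while the genome also holds a great many processed pseudogenes made from their messages. A few have a second functional gene, often used in testis or muscle.

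Chromatin accessibility had been measured by DNase-seq, in which nuclei are treated with the enzyme DNase I and the cut ends are sequenced. The material was adrenal gland of male adult mice of the F1 hybrid strain B6CASTF1/J, aged 18 to 20 months. The 2 libraries, labelled biological replicates 2 and 1, form 1 group with no other condition, so no test between groups was possible and all differences below are descriptions. By their labels the libraries came from separate pieces of tissue that share 1 donor entry, so their spread may be technical. For each library the authors deposited peaks with a height, which is a depth-normalised signal, and footprints, which are short stretches inside open DNA that are cut less than their surroundings, as a bound protein would leave them. Replicate 2 had 118249 peaks and 273271 footprints, and replicate 1 had 98630 peaks and 228557 footprints. Of 10 genes of adrenal cortex and medulla, 8 were open in both libraries, Dbh had a peak of height 0.515 only in replicate 1, and Th, the first enzyme of catecholamine synthesis, had none. None of 6 genes of liver, kidney or forebrain was open. In a bulk tissue, fewer cells with an open promoter and less cutting per cell cannot be told apart.

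All 77 canonical ribosomal protein genes were open in both libraries. A gene is called open where a peak lies within 1 kb of an annotated start. Over all 86 genes, 82 (95.3%) were open in both libraries, against 64.8% of all protein-coding genes. Each library taken alone gave 82 of 86 (exact 95% interval 88.5 to 98.7%, counting error only), against 67.3% of all protein-coding genes in replicate 2 and 66.6% in replicate 1. The same 95.3% of members were open in the authors' shorter peak list, against 60.1% of all protein-coding genes. Rps19bp1 was open, and the 4 genes without a promoter peak were all paralogs, so that 4 of the 8 paralogs were open.

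The promoters that were open most and least are shown first by their sequence. Each line gives 100 bases before and 30 bases from the RefSeq start (GRCm38.p6), 5′ to 3′ on the strand of the gene, with bases under a footprint in both libraries in capitals. The 3 tallest were Rpl7a at chr2:26910707-26910836 (forward strand), Rps3a1 at chr3:86142639-86142768 (reverse strand) and Rplp0 at chr5:115559367-115559496 (forward strand).
Rpl7a: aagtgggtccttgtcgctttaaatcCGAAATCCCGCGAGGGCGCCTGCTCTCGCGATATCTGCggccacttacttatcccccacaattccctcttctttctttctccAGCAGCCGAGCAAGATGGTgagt
Rps3a1: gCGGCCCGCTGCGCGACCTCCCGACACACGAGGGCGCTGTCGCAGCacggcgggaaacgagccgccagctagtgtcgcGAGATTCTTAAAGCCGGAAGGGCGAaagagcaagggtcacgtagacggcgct
Rplp0: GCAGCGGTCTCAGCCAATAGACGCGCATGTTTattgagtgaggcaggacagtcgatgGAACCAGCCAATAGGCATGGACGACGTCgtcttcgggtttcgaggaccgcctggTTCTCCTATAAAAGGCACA
The 3 lowest canonical genes were Rpl6 at chr5:121204401-121204530 (forward strand), Rpl39 at chrX:37085193-37085322 (reverse strand) and Rpl10 at chrX:74270716-74270845 (forward strand).
Rpl6: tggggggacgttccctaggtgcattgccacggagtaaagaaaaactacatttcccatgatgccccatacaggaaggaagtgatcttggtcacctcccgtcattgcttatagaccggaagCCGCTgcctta
Rpl39: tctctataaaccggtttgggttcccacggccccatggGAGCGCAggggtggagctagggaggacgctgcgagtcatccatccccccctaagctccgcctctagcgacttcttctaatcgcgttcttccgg
Rpl10: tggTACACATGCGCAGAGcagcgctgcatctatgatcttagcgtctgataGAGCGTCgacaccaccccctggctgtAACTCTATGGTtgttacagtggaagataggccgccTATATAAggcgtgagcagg
Footprints in both libraries covered 57, 70 and 79 of the 130 bases in Rpl7a, Rps3a1 and Rplp0, and 5, 7 and 40 bases in Rpl6, Rpl39 and Rpl10. The printed window of Rpl6 lay outside its promoter peak in replicate 1, and that of Rpl39 outside its tallest peak there, so for these genes it shows the start rather than the peak. Deeper cutting also makes footprints easier to find, and the part of either in the difference was not tested.

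The promoter peaks of the ribosomal protein genes were taller than those of most open genes, but not uniformly so. The tallest promoter peak, averaged over the libraries, had a median height of 5.73 over the 82 open members (interquartile range 4.29 to 7.31), against 3.88 over the 14040 other open genes. The library medians of the members were 5.66 in replicate 2 and 5.49 in replicate 1. Of the 82, 68 (82.9%) stood above the median of all open genes, and 18 (22.0%) stood above their 90th percentile of 7.60, which 10.0% of all open genes exceed. None lay below the lower quartile of 1.92. The median was 5.56 for the 46 large subunit genes, 5.81 for the 31 small subunit genes and 7.17 for the 4 open paralogs. Among the members themselves, heights spanned 2.03 to 10.98.

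**Figure D1:**
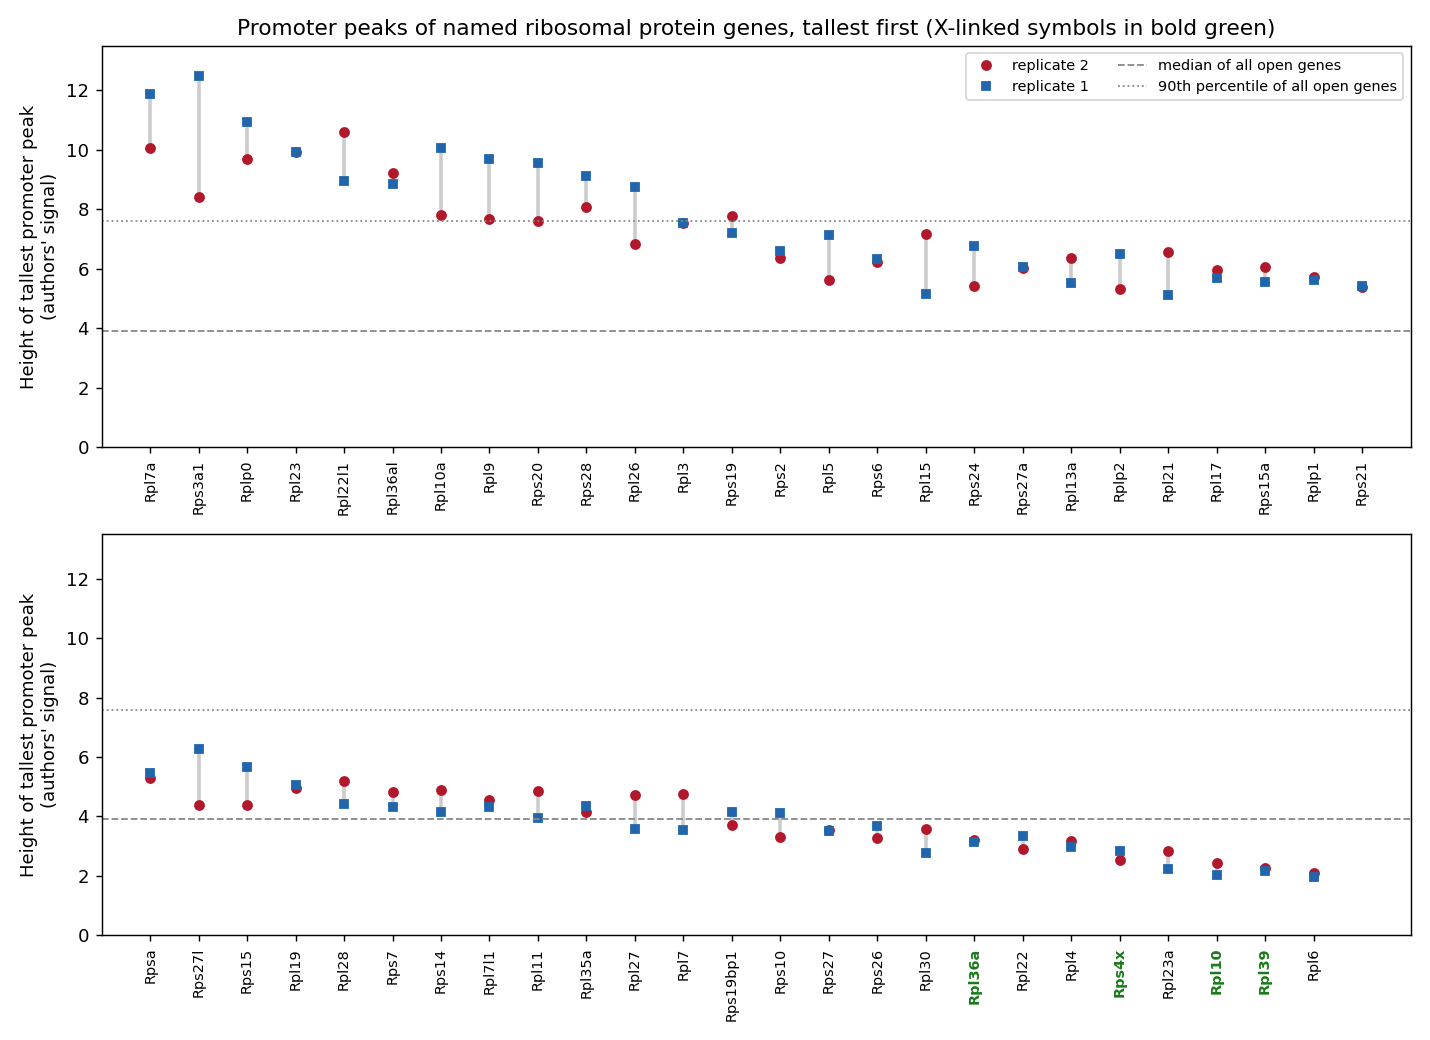
Height of the tallest promoter peak (authors' signal, vertical axis) of the 51 open ribosomal protein genes that the text names, ordered by the mean of replicate 2 (circles) and replicate 1 (squares), with lines at the median (dashed) and 90th percentile (dotted) of all open genes. Heights run from a mean of 10.98 at Rpl7a to 2.03 at Rpl6, and the 4 X-linked genes (bold green) lie at the low end.

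At the top of the order stood genes of both subunits. Rpl7a, a protein of the large subunit, had heights of 10.1 in replicate 2 and 11.9 in replicate 1. Rps3a1, of the small subunit, had 8.40 and 12.5. Rplp0, the base of the stalk that recruits elongation factors, had 9.69 and 10.9. In these 3 genes replicate 1 was the higher library, and in Rps3a1 the libraries differed most. Rpl23 followed, at 9.94 in both libraries. The 10 tallest by mean height also held Rpl22l1 (9.78), Rpl36al (9.03), Rpl10a (8.93), Rpl9 (8.67) and Rps20 (8.59), and 2 of these promoters, Rpl22l1 and Rpl36al, belonged to paralogs.

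At the low end stood Rpl6, with 2.09 in replicate 2 and 1.96 in replicate 1. Rpl39, a very small protein of the tunnel through which the nascent chain leaves, had 2.26 and 2.16. Rpl10, which is among the last proteins to join the large subunit and sits near its catalytic centre, had 2.44 and 2.02. The libraries were close to each other in all 3, and no library reached the median of all open genes. Rpl23a (2.54), Rps4x (2.68), Rpl4 (3.08), Rpl22 (3.12), Rpl36a (3.19), Rpl30 (3.19) and Rps26 (3.47) made up the rest of the 10 lowest by mean height.

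The 4 members on the X chromosome, Rpl39, Rpl10, Rps4x and Rpl36a, were all among the 8 lowest promoters. Their heights were 2.26, 2.44, 2.53 and 3.22 in replicate 2 and 2.16, 2.02, 2.82 and 3.15 in replicate 1. Every one of these values was below the median of all open genes, 3.90. The X-linked members had a median of 2.45, against 5.82 for the 78 open autosomal members. Other open genes also had lower promoter peaks on the X, with a median of 1.78 over 442 genes, against 3.99 over 13594 autosomal genes. The X median was 0.421 of the autosomal one among ribosomal protein genes and 0.447 of it among other genes. Males carry a single X in each cell and a pair of every autosome. What part copy number has in the difference was not tested.

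**Figure D2:**
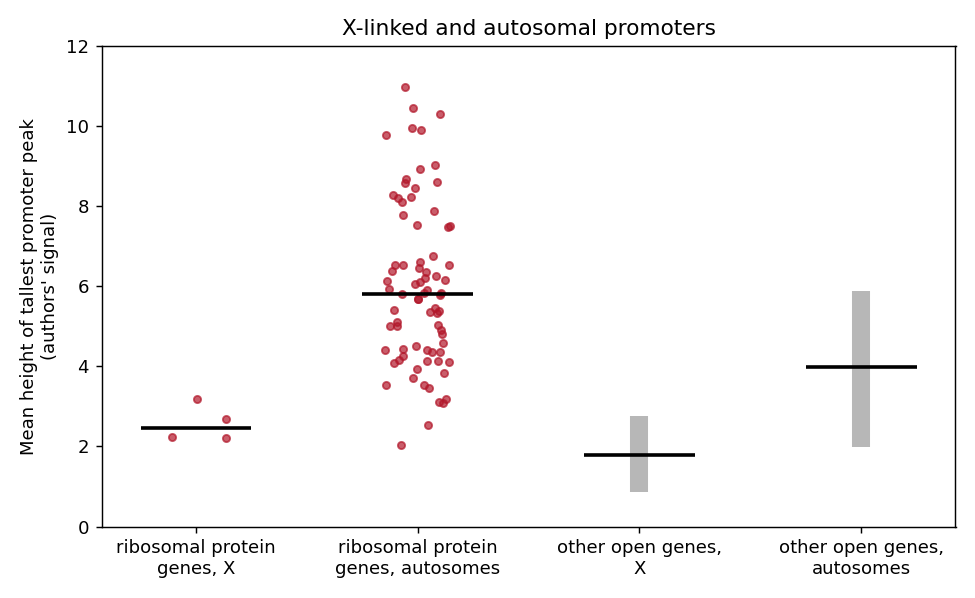
Mean height of the tallest promoter peak (authors' signal, vertical axis) for ribosomal protein genes on the X and on autosomes (one point per gene) and for other open genes (grey bars from the lower to the upper quartile), with a black line at each median. The medians are 2.45 and 5.82 for the ribosomal protein genes and 1.78 and 3.99 for the other genes.

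The paralogs split into open and closed genes. Rpl22l1, a paralog of Rpl22, had heights of 10.6 in replicate 2 and 8.96 in replicate 1, against 2.91 and 3.33 for Rpl22, a ratio of 3.64 and 2.69. Rpl36al had 9.21 and 8.84, against 3.22 and 3.15 for the X-linked Rpl36a, a ratio of 2.86 and 2.80. In both pairs the paralog was the taller in each library, and the libraries of the pair did not overlap. Rps27l, known as a target of p53, had 4.37 in replicate 2 and 6.28 in replicate 1, against 3.55 and 3.51 for Rps27, so the direction was shared and the size was not. Rpl7l1 had 4.54 and 4.33, against 4.75 and 3.54 for Rpl7, and here the libraries went in opposite directions.

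**Figure D3:**
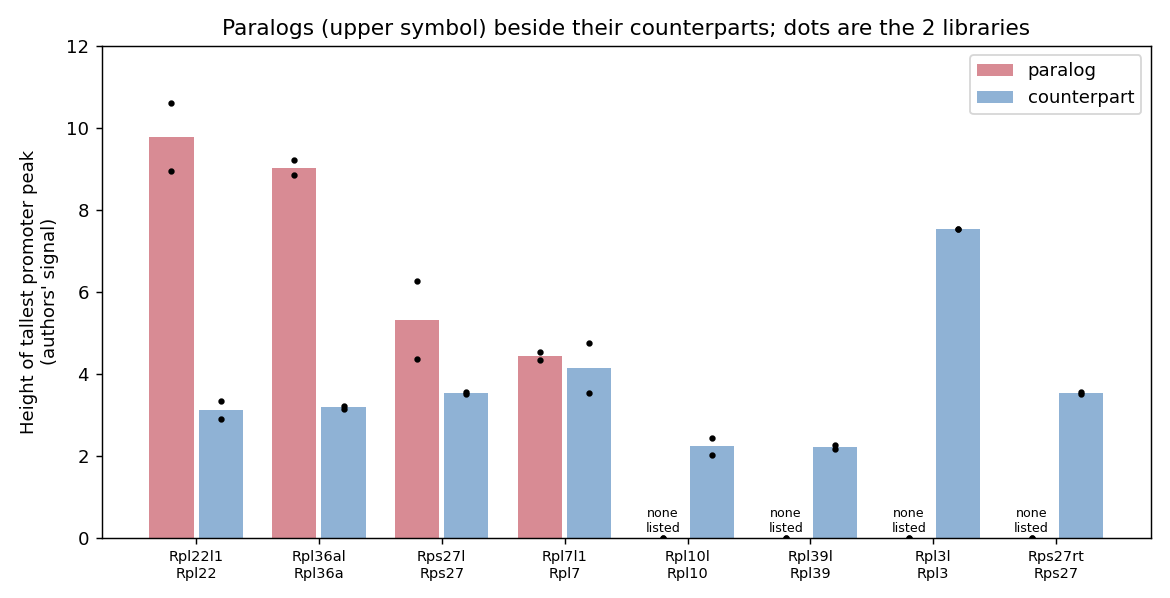
Height of the tallest promoter peak (authors' signal, vertical axis, bars are means and dots the 2 libraries) for 8 paralogs (left bar of each pair) and their counterparts (right bar). Rpl22l1 and Rpl36al exceed Rpl22 and Rpl36a by a ratio of at least 2.69 in each library, and Rpl10l, Rpl39l, Rpl3l and Rps27rt have no listed promoter peak.

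Rpl10l and Rpl39l, autosomal copies of X-linked genes that are known for their use in testis, had no promoter peak in either library, while Rpl10 and Rpl39 had mean heights of 2.23 and 2.21. Rpl3l, known for its expression in striated muscle, had none, while Rpl3, the large subunit protein that reaches the catalytic centre, had 7.53 in replicate 2 and 7.52 in replicate 1. Rps27rt, a retrogene copy, had none, while Rps27 had 3.55 and 3.51. In all 4, no base within 1 kb of a start had a false discovery rate listed under 0.05 in either library, and no footprint was listed. Open members had from 17.5 to 80.9% of the same window listed in replicate 2 and from 19.1 to 74.4% in replicate 1. The nearest peak in replicate 2 lay 3280 bp from Rpl3l, 3599 bp from Rps27rt, 22573 bp from Rpl39l and 281141 bp from Rpl10l. The promoter windows of 2 of them are shown to set beside the open genes above, Rps27rt at chr9:114982710-114982839 (reverse strand) and Rpl39l at chr16:10170128-10170257 (forward strand), with no base in capitals because no footprint lies there.
Rps27rt: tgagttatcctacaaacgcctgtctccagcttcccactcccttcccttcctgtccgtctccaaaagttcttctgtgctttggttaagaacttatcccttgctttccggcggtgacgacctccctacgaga
Rpl39l: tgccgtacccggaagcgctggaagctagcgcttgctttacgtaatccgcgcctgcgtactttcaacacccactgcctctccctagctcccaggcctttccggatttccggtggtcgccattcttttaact
Over 300 bases (250 before to 50 from the start on), these promoters held 9 CpG dinucleotides in Rps27rt, 13 in Rpl10l, 17 in Rpl39l and 2 in Rpl3l, and open members held 7 to 40. CpG number therefore set apart Rpl3l alone. Rps27rt and Rpl10l are annotated with 1 exon, and none of the open members is.

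The annotated pseudogenes gave a further view of copies of these genes, without regard to whether they are processed. Of 283 genes annotated as ribosomal protein pseudogenes by a "-ps" symbol, 13 (4.59%) had a peak within 1 kb of their 5′ end in both libraries. Away from the starts of protein-coding genes there were 11 with a peak of 280, with a median height of 0.864 and a highest of 4.11. The lowest open member, Rpl6, stood at 2.03. A peak overlapped the body of 3 pseudogenes.

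Genes with related roles were compared with the members on the same scale. The 78 mitochondrial ribosomal protein genes, whose products make the ribosome inside mitochondria, were all open, with a median height of 4.82. Mrpl39 (9.43), Mrpl45 (9.39) and Mrpl17 (9.20) were the tallest of them. Of 50 proteasome genes, subunits and assembly factors alike, 47 were open, with a median of 5.42. The subunit genes Psmb2 (10.9) and Psmb9 (10.4) and the assembly chaperone gene Psmg1 (8.87) led. All 20 ribosome biogenesis genes were open, with a median of 4.53, led by Nob1 (8.21), Nop56 (7.79) and Bysl (7.70). All 19 other genes with TOP messages, mostly translation factors, were open with a median of 6.56. Tpt1 (11.3), the elongation factor Eef2 (10.7) and Eif3e (10.6) led these. The members' median of 5.73 thus lay below that of the TOP genes and above those of the other lists, all of which lay above the 3.88 of other open genes.

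Subsets with known special roles did not stand together. In the stalk, Rplp0 had a mean height of 10.3, Rplp1 of 5.67 and Rplp2 of 5.90. Of the proteins that carry 5S RNA into the large subunit and can bind Mdm2, the inhibitor of p53, Rpl5 had 5.62 in replicate 2 and 7.15 in replicate 1, and Rpl11 had 4.87 and 3.94. Rpl5 was the taller in each library. The 9 genes listed here from those linked in humans to Diamond-Blackfan anaemia, which number more (among them Rps19, Rpl5, Rpl11, Rps26, Rps24, Rps10, Rps7 and Rpl35a) were all open, with a median of 4.58 and a lowest value of 3.47 at Rps26. Rps6, the substrate of the S6 kinases, had 6.26, Rps27a, made as a fusion with ubiquitin, had 6.06, and Rpsa, also described as a laminin receptor, had 5.38.

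The members differed little between the libraries. The difference of replicate 2 over replicate 1 had a median of -0.01 on the log2 scale, against -0.05 over all open genes. Replicate 2 was higher in 39 of the 82 members and replicate 1 in 43, while replicate 2 was higher in 44.0% of all open genes. The median size of the difference, either way, was 0.14 log2 in the members and 0.21 in other open genes. It exceeded 0.5 log2 in 3 members (3.66%), against 12.2% of all open genes. Proteasome genes had 2.13% and mitochondrial ribosomal protein genes 5.13%, near the share of the members. Taller peaks are measured with more cuts, and the part of height in this was not tested. All 3 members, Rps3a1 (-0.57) and Rps27l (-0.52) among them, were higher in replicate 1, followed by Rps15 and Rpl10a (both -0.37). In the other direction came Rpl15 (0.47), Rpl7 (0.42), Rpl27 (0.39), Rpl30 (0.37) and Rpl21 (0.36). Rps3a1 had 8.40 in replicate 2 and 12.5 in replicate 1, and Rpl15, at 7.15 and 5.16, had the widest gap the other way.

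Most peaks sat on the start. In 63 of the 82 open members (76.8%), the centre of the tallest peak lay within 100 bp of an annotated start in both libraries, as it did in 58.3% of other open genes. The share was 80.8% among mitochondrial ribosomal protein genes, 84.2% among other genes with TOP messages and 74.5% among proteasome genes, so it was not particular to the members. The median centre lay at -25.5 bp in replicate 2 and -16.5 bp in replicate 1, upstream being negative, and the median peak was 220 bp wide in both. The 63 had a median height of 6.06, against 4.14 for the other 19, and other open genes differed in the same direction, at 4.37 and 2.93. Rpl6, the lowest, had its peak centre 139.5 bp downstream of the start in replicate 2 and 309.5 bp downstream in replicate 1. At Rpl4 it lay at -444.5 bp (upstream) in both, and the same peak lay within 1 kb of a start of Zwilch. In 78 members the tallest peaks of the libraries overlapped, and in others, such as Rps19, Rps14 and Rpl39, the libraries picked different peaks.

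A promoter peak may belong to more than 1 gene. The tallest peak of 15 open members (18.3%) also lay within 1 kb of a start of another protein-coding gene, close to the 17.4% of other open genes. Such a peak is called shared here, although it need not cover the other start. Among the 10 tallest these were Rpl7a with Med22, Rpl36al with Mgat2 and Rpl9 with Lias, and among the 10 lowest Rpl4 with Zwilch. Members that share a peak had a median height of 6.31 in replicate 2 and 5.26 in replicate 1, against 5.62 and 5.52 for those that do not, so the libraries went in opposite directions. Within the bounds of 30 members, on the same strand, lie 58 annotated small nucleolar RNA genes, which guide the modification of ribosomal RNA, with 5 in Rpl4. The host members had a median of 6.08, against 5.38 for the 52 open members without such genes.

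Distal open regions were about as numerous near the members as near other open genes. Regions found in both libraries and more than 1 kb from any start numbered a median of 3.5 within 50 kb over all 86 members, against 2 for all other protein-coding genes. Among open genes alone the median was 4 for members and 3 for others. From replicate 2 alone it was 6 for both, and from replicate 1 alone it was 4.5 for open members and 4 for other open genes. Rpl19 had 14, Rps19bp1 11 and Rps21 10. There were 0 near Rpl22l1, Rps27a, Rpl28, Rps27, Rpl10, Rpl10l and Rpl39l, so Rpl22l1, among the 10 tallest promoters, had no distal region of this kind within that distance. These were 7 of the 86 members, while 4771 of all 21805 protein-coding genes had none.

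Footprints were as many as at other open genes but placed differently. The members had a median of 7 footprints within 1 kb of a start in each library and 4 that recurred in both, and other open genes had the same medians. Every open member had at least 1 recurrent footprint, as did all 19 other genes with TOP messages. Of the 14040 other open genes 1079 had none, and so did 1 mitochondrial ribosomal protein gene and 1 proteasome gene. Rps14 had 24 in replicate 2, 23 in replicate 1 and 10 recurrent ones, but it has 8 annotated starts and so a wider window. Rpl7 had 17 and 19 with 10 recurrent, from 2 starts, and Rpl10 had 13 and 12 with 9 recurrent, although its peak was the third lowest. Rpl13a and Rps19 had 8 recurrent footprints each. The fewest, 1, were at Rps4x and Rps10.

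Around the start itself the members carried more footprinted bases. With positions counted from the start as 0 and upstream as negative, 25.8% of bases lay under a footprint in both libraries in members and 18.4% in other open genes at positions -100 to -1. From 0 to 49 the shares were 20.1% and 11.5%. Within this stretch coverage in members fell back to 19.1% at positions -40 to -31, where other open genes had 18.9%. Farther out the shares converged, to 11.9% and 9.08% at positions -200 to -101 and to 3.88% and 4.07% at positions -250 to -201. At least 1 such base lay in the 100 bases upstream of the start in 72 members (87.8%) and in 70.8% of other open genes. Members also have taller peaks, and the part of depth in these shares was not tested.

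**Figure D4:**
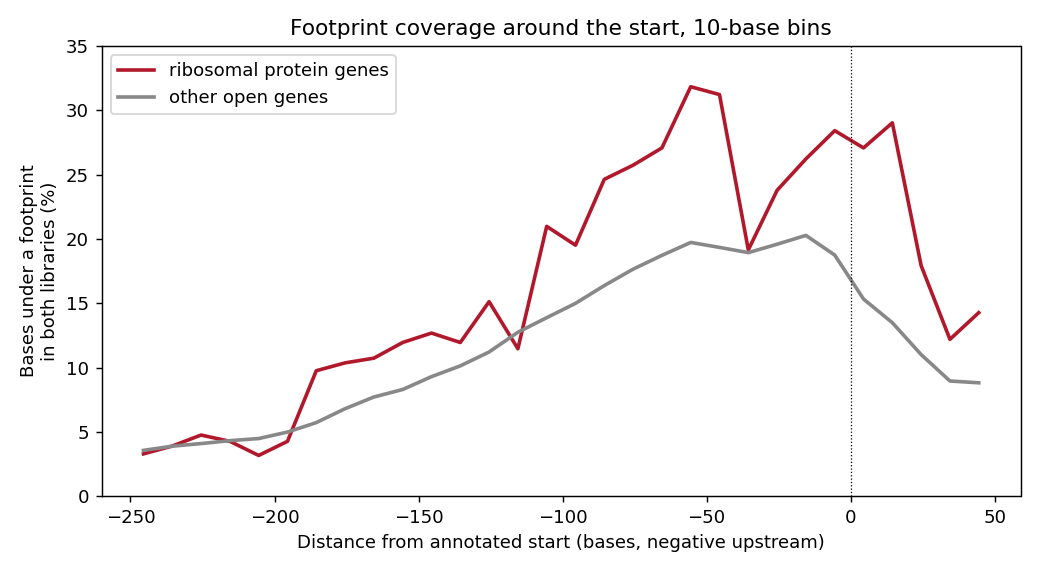
Percent of bases under a footprint in both libraries (vertical axis) by distance from the annotated start in bases (horizontal axis, negative upstream, bins of 10 bases), for the 82 open ribosomal protein genes (red) and other open genes (grey). Over the 100 bases upstream of the start, 25.8% and 18.4% of bases are covered, with a dip in the members at -40 to -31, and the curves meet beyond 200 bases.

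Consensus letters of factors known from ribosomal protein or housekeeping promoters were searched on both strands of the 300-base windows. The ETS core CCGGAA, recognised by GABP and its relatives, occurred in 42 of 82 members (51.2%) and in 26.8% of other open promoters. The YY1 letters AAGATGG occurred in 13.4% and 6.85%, the ZNF143 letters ACTACAA in 8.54% and 3.92%, the CRE half-site TGACGT in 17.1% and 11.9%, and the NRF1 letters GCATGCG in 9.76% and 6.44%. The SP/KLF box GGGCGG was less frequent in members, at 54.9% against 66.9%, and so was the NFY box CCAAT, at 29.3% against 37.3%. The E-box CACGTG stood at 9.76% and 10.1%. The members' windows had a lower median GC content, 56.3% against 61.7%, and the same median number of CpG dinucleotides, 21. The part of base composition in these shares was not tested. A match is a run of letters and does not show that a factor was bound. A CRE half-site on each strand of one full site counts as 2 overlapping matches.

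**Figure D5:**
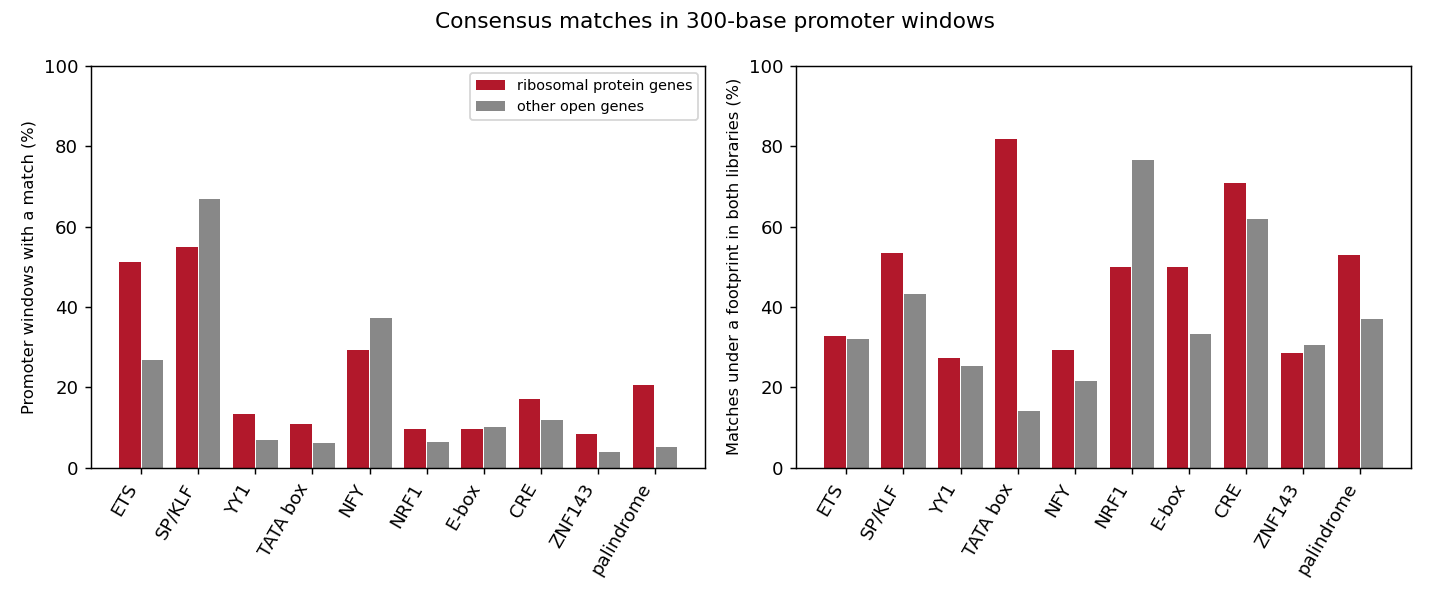
Percent of promoter windows with a consensus match (left) and percent of matches under a footprint, by at least 1 base, in both libraries (right) for ribosomal protein genes (red) and other open genes (grey). ETS matches occur in 51.2% and 26.8% of windows and TATA matches in 10.98% and 6.17%, and 81.8% and 14.2% of the TATA matches lie under a footprint.

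Here and below, a match counts as under a footprint where at least 1 of its bases is covered in each library. The covered bases may differ between the libraries. Of all matches to these consensus letters and the TATA box in members, 45.6% overlapped a footprint in both libraries, against 38.4% in other open promoters. ETS matches did so about equally, 20 of 61 (32.8%) in members and 32.0% elsewhere, in 17 members. SP/KLF matches did so in 53.4% and 43.1%, and CRE matches in 70.8% and 61.8%. NRF1 matches went the other way, at 5 of 10 in members and 76.5% in other genes. Examples of footprinted ETS letters are Rps21, with CCGGAA under 2 recurrent footprints, and Rps7, with the letters on the opposite strand. They are shown as the clearest places to see the letters within capitals, Rps21 at chr2:180257279-180257408 (forward strand) and Rps7 at chr12:28635924-28636053 (reverse strand).
Rps21: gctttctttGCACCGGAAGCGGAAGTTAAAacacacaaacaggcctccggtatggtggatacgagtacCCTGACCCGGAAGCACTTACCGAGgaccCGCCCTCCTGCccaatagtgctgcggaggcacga
Rps7: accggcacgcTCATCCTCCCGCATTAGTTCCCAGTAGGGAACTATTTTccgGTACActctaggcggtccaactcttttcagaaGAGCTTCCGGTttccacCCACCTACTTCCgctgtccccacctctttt

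TATA letters were rare in members and mostly footprinted. TATAAA occurred in 9 members (10.98%) and in 6.17% of other open promoters. Of the 11 matches in members, 9 (81.8%) lay under a footprint in both libraries, against 14.2% of matches in other genes. In members the matches lay mostly after the annotated GENCODE start, at a median position of 17 bases downstream, while in other genes the median was -136, upstream. Relative to these GENCODE starts, the matches in members are thus not at the usual place of a TATA box. Counting only matches from 100 bases upstream on, where most of the members' matches lie, the shares were 80.0% and 27.9%. The 7 members with a footprinted match included Rplp0, Rpl22l1, Rps20, Rps28, Rpl3 and Rps2. Rps14 and Rpl36a had matches without one in both libraries. The sequences of Rpl22l1 at chr3:28805408-28805537 (forward strand) and Rps2 at chr17:24719963-24720092 (forward strand) show it, and so does that of Rplp0 above. They are printed from RefSeq starts, which equal the GENCODE starts used for Rps2 and Rplp0. For Rpl22l1 the RefSeq start lies 72 bases downstream of the GENCODE start, so its TATA letters lie upstream of the RefSeq start.
Rpl22l1: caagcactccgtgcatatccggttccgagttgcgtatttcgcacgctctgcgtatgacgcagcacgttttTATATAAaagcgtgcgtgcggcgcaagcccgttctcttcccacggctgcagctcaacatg
Rps2: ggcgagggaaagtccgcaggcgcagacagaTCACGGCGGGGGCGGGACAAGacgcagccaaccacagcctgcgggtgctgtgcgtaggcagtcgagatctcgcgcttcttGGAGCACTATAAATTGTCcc
Members with TATA letters had tall peaks. Their median height was 8.59, against 5.46 for the 73 members without, whereas other open genes with TATA letters had 3.17, against 3.92 for those without. For matches under a footprint in both libraries, both groups went the same way. Members with such a match had a median of 8.59, against 5.40 for the rest. Other open genes with one had 5.99, against 3.87. The 7 members with a footprinted match ranged from 6.46 at Rps2 to 10.3 at Rplp0, while Rps14 had 4.52 and Rpl36a 3.19.

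The palindrome TCGCGA was noticed in the printed promoters and then counted, so its count is a description of what was seen. It occurred in 17 members (20.7%) and in 5.16% of other open promoters. In 9 of the 17 it overlapped a footprint by at least 1 base in both libraries (52.9%, against 37.1% of matches in other genes). These included Rpl7a, Rps3a1, Rpl10a, Rps28, Rpl26, Rps6, Rpl17 and Rps15a, of both subunits. In Rps3a1, printed above, only part of the palindrome is in capitals. The members with the palindrome had a median height of 6.76, against 5.38 for those without. Other open genes with it had 4.90, against 3.82 for those without. The promoters in which the palindrome was noticed included the tallest members, Rpl7a and Rps3a1 among them. The height comparison within members is therefore not independent of how the palindrome was found. It is shown in Rpl26 at chr11:68901466-68901595 (forward strand), Rpl10a at chr17:28328465-28328594 (forward strand) and Rps6 at chr4:86857338-86857467 (reverse strand), and appears above in Rpl7a.
Rpl26: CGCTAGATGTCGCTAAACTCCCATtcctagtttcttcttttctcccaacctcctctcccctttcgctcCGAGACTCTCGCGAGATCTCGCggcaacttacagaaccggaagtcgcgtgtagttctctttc
Rpl10a: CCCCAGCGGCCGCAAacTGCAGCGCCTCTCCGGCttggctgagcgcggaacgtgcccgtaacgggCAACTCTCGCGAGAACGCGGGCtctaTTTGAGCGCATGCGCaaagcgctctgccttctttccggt
Rps6: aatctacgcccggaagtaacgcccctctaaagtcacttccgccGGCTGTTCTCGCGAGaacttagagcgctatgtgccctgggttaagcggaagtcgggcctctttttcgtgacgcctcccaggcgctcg
In all 3, the capitals run unbroken over the palindrome and at least 1 base to each side of it.

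Pyrimidine stretches were longer near the starts of members than near those of other open genes. This measure was chosen after the sequences had been seen. The longest unbroken run of C and T from 20 bases before to 50 bases from the start on had a median of 8.5 bases in members and 5 in other open genes. A run of 8 or more was present in 49 members (59.8%) and in 21.7% of other open genes. A run of 5 or more covered the GENCODE start itself in 18.3% of members and 9.47% of others. RefSeq starts were available for 62 open members and lay a median of 7 bases farther downstream. Among these 62, such a run covered the GENCODE start in 16.1% and the RefSeq start in 29.0%, against 9.57% and 9.07% of the other open genes with a RefSeq start. Members with a run of 8 or more pyrimidines had a median height of 5.40, against 6.16 for those without, and other genes differed the same way, at 3.60 and 3.97.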

How the data were processed

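DNase-seq of adrenal gland was analysed as 1 library for each of biological replicates 2 and 1. According to the deposited index text, the authors made all lists separately per library from a filtered mm10 alignment. Their software is not given in the sources used here. The authors' longer of 2 peak lists was used. Its signal column holds the peak height, which the authors had scaled to depth before deposition, as the steps of the values show: dividing by the smallest step of a library gave whole numbers (within 0.05) for 100% of heights. Members' heights were 279 to 1413 steps in replicate 2 and 369 to 2355 in replicate 1. Total depth is unknown, and fewer steps mean a less precise height. The deposited footprint score was constant, so only positions were used. The deposited false discovery rate (a q-value) is listed by the authors only below 0.05.

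Coordinates are 1-based on GRCm38, the assembly mm10 names, with 54250 starts of protein-coding transcripts from GENCODE vM21 (48 records with repeated symbols left out). The tallest peak overlapping 1 kb to either side of a start gave a gene's height. A footprint recurred where it shared 1 bp or more with a footprint of the other. Motifs were searched from 250 bases before to 50 from the start nearest to the peak, with 1 window left out for unknown bases. The genome reference, not the hybrid's alleles, was searched. RefSeq promoter sequences (GRCm38.p6) matched 66 members, and all 81 entries were equal to the genome. The steps were tested on simulated data. Python 3.11.15, pandas 2.3.3, scipy 1.17.1, pysam 0.24.0 and matplotlib 3.10.9 were used.

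Members, gene lists and comparisons were chosen with earlier results of these data known. Results of some genes are not reported here. Named genes are the members without a promoter peak, the 10 tallest and 10 lowest, the 5 with the largest replicate difference each way, those with most footprints, the stalk, 5S particle, anaemia-linked and paralog genes, Rpsa, Rps6, Rps27a and the 3 tallest of each other list. The genes with displaced or shared peaks, with most distal regions or with named motif matches, and the closed promoters printed, were chosen after their values were seen. No p-value was computed, since the design has 1 group. Alternatives were the shorter peak list, other windows and starts, other ways to pick or scale a peak, other footprint rules and each library alone.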

Additional observations from a re-analysis of the deposited data

How the results depend on the processing

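No paired analysis was possible because the samples form 1 group. The share of members open, 95.3%, was the same in the shorter peak list, in each library alone and within 250 bp. It was 91.9% from the 5′ end of each gene record, 97.7% within 5 kb and 100% without paralogs and Rps19bp1. The median height of 5.73 was 5.40 from gene 5′ ends and 6.53 with promoter peaks summed, and 5.49 to 5.66 in single libraries. The median of 7 footprints was 6 within 250 bp, 8.5 within 5 kb, 5 inside a peak and 4 if recurrent. The median replicate difference of -0.01 log2 was -0.0731 after dividing heights by each library's median peak. The median peak centre lay at -20.5 bp from a start (upstream), and 1.5 bp downstream of gene 5′ ends. Matches under a footprint were 25.5% in members and 23.4% in other open promoters when wholly inside. With footprints extended by 3 bp they were 52.3% and 43.7%. Distal regions numbered a median of 1 within 20 kb, 6 within 100 kb, and 4 to 6 in single libraries, where more regions are listed than in both together. The ratio of the members' median height to that of other open genes was 1.47, also with heights divided by each library's median peak. Under settings added after seeing the data it was 1.61 for genes sharing a peak with no other gene, 1.46 on autosomes and 1.41 to 1.48 in single libraries. The causes of these shifts were not tested.

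With 2 libraries and no control, the files hold no measure of the spread between animals. How reads that match several places were treated is not given in the sources used here, which bears on genes with near-identical copies.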
